A study of Mus musculus with 8 samples.

Results

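The genes described here are 44 neighbours of Ern1 on distal mouse chromosome 11, from Tanc2, which starts 0.90 Mb before the Ern1 start, to Cygb, which starts 10.17 Mb after it. They were taken by symbol from a fixed list of names, and all 44 names were found in the table of 18438 genes. The list is a selection from that stretch and not the whole of it, and its rule adds a floor on the measured values, a normalized read number of at least 10 in at least 2 of the 8 libraries. That floor kept 43 of the 44, which belong to 13358 genes that passed it in all. Another 74 tested genes, Ern1 among them, lie between the first and the last member and are not on the list, and why these were passed over is not given by the rule. Because the list was drawn up with results of the same libraries known, the counts below describe the members and are no independent evidence of an effect around Ern1.

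The RNA came from splenic T cells of C57BL/6 mice with experimental autoimmune encephalomyelitis (EAE), taken on day 7. EAE, induced here with the myelin protein MOG, serves as a model of multiple sclerosis. Regulatory T cells (Treg, gated as CD4+, CD25hi and YFP+) and effector T cells (Teff, gated as CD4+, CD25- and YFP-) were each sorted from 2 genotypes, wild type (WT) and IRE1a-/- (KO), which makes 4 groups of 2 libraries. All 4 groups had EAE, so no group shows the undisturbed animal. The labels leave out the deleted stretch of Ern1, the cells that carry the deletion, the driver of YFP and the age of the mice. They also do not tie libraries to animals. The p-values rest on the spread between the 2 libraries of a group, pooled over the 4 groups, and this spread may be technical. In sorted bulk samples, fewer cells of a type and less RNA per cell cannot be told apart.

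Ern1 encodes IRE1a, a sensor of unfolded protein in the membrane of the endoplasmic reticulum (ER), which splices the mRNA of the transcription factor XBP1 and cleaves other RNAs. The members share a place on the chromosome and no pathway: they include surface receptors of immune cells, kinases and adaptors, RNA helicases, chromatin and import factors, and enzymes. Genes that lie close to a targeted gene are inherited with it in a cross, which is why their values are read side by side.

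The normalized read numbers of a library summed to 17504097 to 18751258, with 16324 to 16642 genes above 0. How they were scaled is not stated, so these sums do not measure sequencing depth. The labelled cell types showed their defining markers: Cd4 lay between 17062 and 25059 in the 8 libraries, Il2ra (CD25) between 8699 and 9012 in Treg against 436 to 690 in Teff, and Foxp3, the lineage factor of Treg, between 89.1 and 117 in Treg against 0 to 8.29 in Teff. By limma (adjusted p below 0.05), 4 of 8 Treg markers were lower in KO than in WT Teff (Nrp1, Ikzf2, Ctla4 and Tnfrsf18). Foxp3 was higher there, at 2.06 and 8.29 in KO and 0 in both WT libraries. Of all tested genes 5.08% were lower and 1.84% higher in KO Teff. In Treg none of the 8 passed (2 at an unadjusted p under 0.05, and 1 in the authors' deposited table). Macrophage genes were present as well. Of 16 markers 14 were in the table and none was at 0 in any WT library or any Treg library, and Fcgr1 was at 0 in 1 KO Teff library. Their summed level was 36425 and 37253 in WT Treg, 23394 and 22296 in KO Treg, 7845 and 6014 in WT Teff, and 5828 and 5397 in KO Teff.

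Ern1 itself (chromosome 11, 106394650 to 106487852 of GRCm38, minus strand) had normalized read numbers of 377 and 399 in WT Treg, 326 and 359 in KO Treg, 559 and 616 in WT Teff, and 458 and 453 in KO Teff. Both KO libraries were below both WT libraries in each cell type. Neither difference passed limma's test with Benjamini-Hochberg adjustment over all tested genes (log2 fold change -0.18, SE 0.10, adjusted p = 0.489 in Treg and -0.37, SE 0.10, adjusted p = 0.0902 in Teff). Values cover whole genes and the removed part is not named, so this is no check of the genotype labels.

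The first question was whether differences between KO and WT recur in both cell types among the members. They did for 3 of 43: Cygb, a heme protein of the globin family, was higher in KO in both, and Fads6, which belongs to the fatty acid desaturase family, and Cd300ld, an activating receptor of myeloid cells, were lower in both. Cygb passed the floor on the values only through its KO libraries, so its direction is a description. Across all tested genes 0.958% were called in both cell types in the same direction (called: adjusted p below 0.05). In Treg 3 members were called against 1.45% of all genes, 1 higher against 0.674% and 2 lower against 0.779%. In Teff 8 were called against 6.92%, of which 2 were higher against 1.84% and 6 lower against 5.08%. The 8 called in Teff include the 3 called in Treg, so 8 of 43 (18.6%) were called in either cell type, against 7.4% of all genes.

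Most members moved little. The median log2 fold change of the 43 was -0.02 in Treg and -0.03 in Teff, against -0.01 and -0.02 over all tested genes, and the median absolute change was 0.168 and 0.183 against 0.164 and 0.197. Changes over 2-fold were seen for 7 members in Treg and 8 in Teff, while 6.54% and 9.29% of all genes passed that size. KO and WT libraries did not overlap for 27 members in Treg and for 27 in Teff, where 48.7% and 49.8% of all genes did not overlap, and for 17 members they did not overlap in both cell types in the same direction, against 21.4% of all genes. Cep112 and Cyb561 reached the floor of 10 only in the WT Treg libraries, and so had to be lower in KO Treg. Cygb reached it in every KO library but, in WT, only in the second Teff library, and so passed through KO. All of these are among the 7 members over 2-fold in Treg.

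The KO effects in Treg and in Teff come from different libraries, but the labels do not say whether these come from different mice. Calls in both cell types also share 1 estimate of the spread per gene. Over the 43 members they correlated at r = 0.83 (Spearman's rho 0.70), and 29 members (67.4%) had the same sign in both cell types. Over all 13358 tested genes r was 0.37 (rho 0.34) and 62.8% had the same sign. Without the 3 members called in both, r was 0.71 over 40 members (rho 0.63), and over the 33 members within 5 Mb of Ern1 it was 0.69 (rho 0.49, same sign in 20). Genes are no replicates, and a few members with large changes carry much of r. Among these is Cygb, tested only through its KO libraries. Cep112 and Cyb561 also enter, and their Treg effects had to be below 0 because only WT Treg reached the floor. Both lie within 5 Mb of Ern1. The list was drawn up with results of these libraries known, so r is a description.

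**Figure D1:**
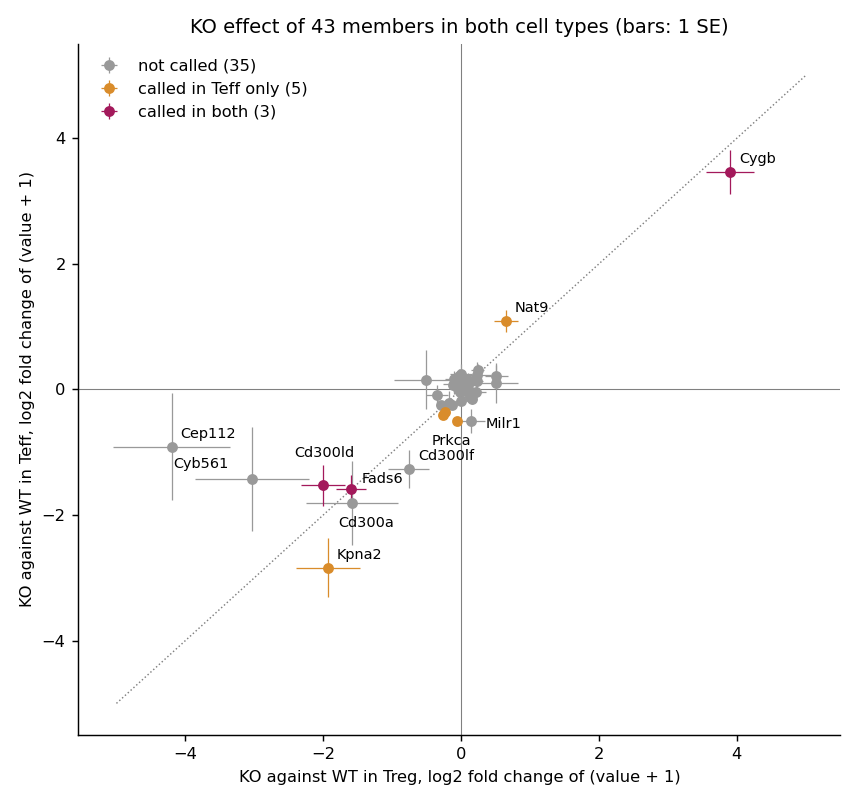
Log2 fold change of (value + 1) in KO against WT in Treg (horizontal axis) and in Teff (vertical axis) for 43 members, with bars of 1 SE and a dotted line of equal effects. The 3 members called in both cell types are Cygb at the upper right and Cd300ld and Fads6 at the lower left, the 5 called in Teff alone include Kpna2 and Nat9, and the 35 others lie mostly near the origin.

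Of the 7 enzymes and transporters, 3 were called in at least 1 cell type. Cygb (116645595 to 116654313, minus strand) encodes cytoglobin, which binds oxygen and nitric oxide. Its values were 2.94 and 1.96 in WT Treg, 49.2 and 51.1 in KO Treg, 8.04 and 10.1 in WT Teff, and 131 and 90.6 in KO Teff. All 4 KO libraries were far above all 4 WT libraries. Of the WT libraries only the second of Teff reached 10, so Cygb was tested only because it was high in KO. Its direction in KO against WT is thus a description. The log2 fold change was 3.90 in Treg (SE 0.35, adjusted p = 0.0029) and 3.46 in Teff (SE 0.35, adjusted p = 0.00318), and both calls held in all 16 alternative analyses (largest adjusted p 0.0341 and 0.0275). Cygb shares 780 bases with Prcd, a gene of the opposite strand named in inherited retinal degeneration, and the protocol names no step that marks the strand, so reads there cannot be assigned to 1 of the pair. Prcd, named after its values were seen, had 1.05 and 0 in WT Treg, 10.7 and 5.88 in KO Treg, 0 in both WT Teff libraries, and 21.6 and 16.6 in KO Teff, with adjusted p = 0.0148 in Teff and 0.137 in Treg. Only KO libraries of Prcd reached 10, so it was tested only because it was high there, and its direction is a description.

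Fads6 (115279622 to 115297663, minus strand) had 148 and 141 in WT Treg, 49.3 and 45.1 in KO Treg, 93.7 and 91.5 in WT Teff, and 35.3 and 26.2 in KO Teff. The KO libraries stood apart from the WT libraries in both cell types, and KO means were 32.6% of WT in Treg and 33.2% in Teff. On the log2 scale the value fell by 1.60 in Treg (SE 0.22, adjusted p = 0.0197) and by 1.58 in Teff (SE 0.22, adjusted p = 0.0092), and the difference between these effects was -0.02 (adjusted p = 0.991). The call in Treg was lost without any single Treg library (adjusted p = 0.157 and 0.141 without the first or the second WT library, 0.118 and 0.117 without the first or the second KO library), and the call in Teff was lost when Teff libraries alone entered the fit (adjusted p = 0.0652).

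Nat9, a member of the N-acetyltransferase family, had 89.7 and 102 in WT Treg, 154 and 149 in KO Treg, 74.9 and 77.1 in WT Teff, and 145 and 181 in KO Teff. KO libraries were above WT libraries in both cell types, and the difference was called in Teff (log2 fold change 1.09, SE 0.18, adjusted p = 0.0162) and not in Treg (0.65, SE 0.18, adjusted p = 0.15). The difference between the effects was -0.43 (adjusted p = 0.635). The Teff call was lost without either WT Teff library, without the second KO Teff library and with Teff libraries alone in the fit (adjusted p of 0.0633 to 0.0832). Nat9 shares 373 bases with Tmem104 on the opposite strand.

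The other 4 of this group were not called in either cell type. Slc16a6, of the monocarboxylate transporter family, Arsg, a lysosomal sulfatase, and Amz2, a metalloprotease, had log2 fold changes of 0.10 to 0.51. Cyb561, a membrane protein that passes on electrons from ascorbate, had 23.9 and 41.9 in WT Treg, 4.74 and 1.79 in KO Treg, 6.10 and 3.06 in WT Teff, and 0 and 2.99 in KO Teff. Only the WT Treg libraries stood above 10, and the difference in Treg was -3.03 (SE 0.83, adjusted p = 0.149).

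**Figure D2:**
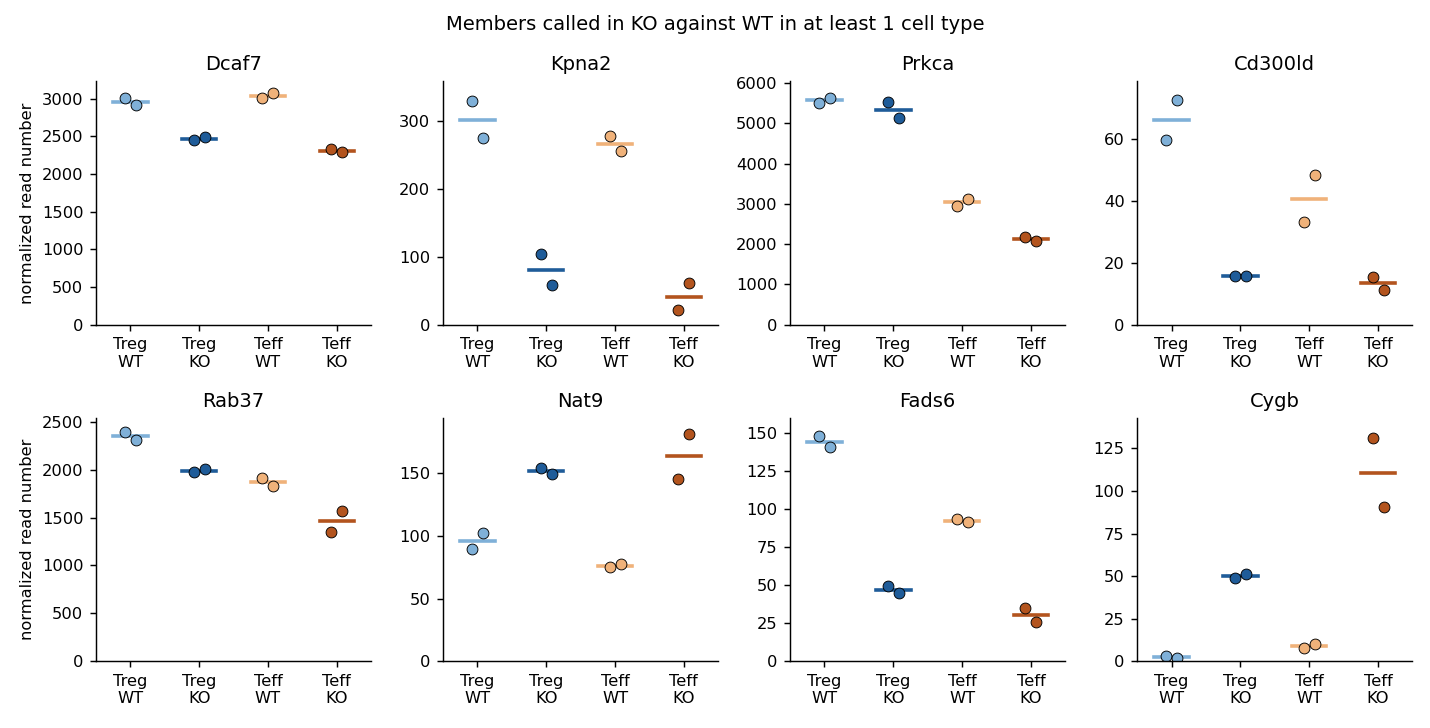
Normalized read number (vertical axes, from 0) of the 8 members called in KO against WT in at least 1 cell type, 1 point per library and a line at the mean of 2 libraries, in WT and KO Treg (blue) and WT and KO Teff (orange). Cygb was above 45 in every KO library and at most 10.1 in WT, while Prkca differed between WT and KO in Teff and overlapped in Treg.

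Among the 6 adhesion and immune surface receptors, Cd300ld was called lower in both cell types and the other 5 were not called in either. The CD300 receptors are paired activating and inhibitory receptors for lipids, found mainly on myeloid cells. Cd300ld (114982274 to 114989922, minus strand) had 59.8 and 72.6 in WT Treg, 15.7 and 15.7 in KO Treg, 33.1 and 48.4 in WT Teff, and 15.5 and 11.3 in KO Teff. No KO library reached the lowest WT library of its cell type, and KO means were 23.8% of WT in Treg and 32.9% in Teff. The log2 value fell by 2.00 in Treg (SE 0.32, adjusted p = 0.0363) and by 1.53 in Teff (SE 0.32, adjusted p = 0.0346). Both calls lay close to the threshold: with a replicate block they were lost (adjusted p = 0.074 in Treg and 0.0612 in Teff), the Treg call was lost without any single Treg library or the second WT Teff library (adjusted p of 0.0525 to 0.221), and the Teff call without any 1 of the 8 libraries, after quantile normalization and with Teff libraries alone in the fit (adjusted p of 0.0526 to 0.17).

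Cd300a, an inhibitory receptor, had 427 and 355 in WT Treg, 242 and 69.3 in KO Treg, 186 and 248 in WT Teff, and 109 and 33.5 in KO Teff. In each cell type both KO libraries were below both WT libraries, but the KO libraries of a cell type lay far from each other, and neither difference passed (log2 fold change -1.58, SE 0.67, adjusted p = 0.339 in Treg and -1.81, SE 0.67, adjusted p = 0.176 in Teff). Cd300lf, an inhibitory receptor also used by murine norovirus to enter cells, had 85.9 and 91.1 in WT Treg, 48.5 and 55.1 in KO Treg, 103 and 148 in WT Teff, and 65.4 and 39.2 in KO Teff. The libraries did not overlap in either cell type, and the difference in Teff was just short of a call (-1.27, SE 0.30, adjusted p = 0.0515; Treg -0.76, adjusted p = 0.305). The whole of Cd300lf, 17779 bases, lies within Rab37 on the opposite strand. Of 9 other CD300 genes, 8 were in the table and 5 were tested. None of the 5 was called by limma in either cell type, with 1 at an unadjusted p under 0.05 in each, and none was called in the authors' deposited table. Their median log2 fold change was -0.80 in Treg and -1 in Teff, with 4 of 5 below 0 in Treg and 5 of 5 in Teff.

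Markers of myeloid cells stood beside these values. All 14 tested macrophage and monocyte markers were lower in KO in both cell types, with a median log2 fold change of -0.77 in Treg and -1 in Teff, and 1 of them, Ctsd, was called in Treg (adjusted p = 0.0163) and none in Teff (8 at an unadjusted p under 0.05, and 3 called in the authors' deposited table). Of 10 dendritic cell markers 9 were tested, with 7 below 0 in Treg and 9 in Teff, and Zbtb46 and Irf8 were called lower in Teff (adjusted p = 0.0277 and 0.0155). Their summed level was 2323 and 2446 in WT Treg, 2126 and 2083 in KO Treg, 2721 and 3833 in WT Teff, and 2276 and 1771 in KO Teff. Neutrophil marker sums were lower, at 189 and 221 in WT Treg and 209 and 122 in KO Treg. In Teff they were 388 and 360 in WT and 132 and 110 in KO. Of 10 markers 6 were tested, with 5 below 0 in each cell type. Their median log2 fold change was -0.43 in Treg and -1.91 in Teff. By limma none was called (0 in Treg and 2 in Teff at an unadjusted p under 0.05). The authors' deposited table calls 0 and 1. The macrophage sum was several times higher in WT Treg than in WT Teff. Means in WT Treg and WT Teff were 391 and 217 for Cd300a, 66.2 and 40.8 for Cd300ld, and 88.5 and 125 for Cd300lf, with no call between the cell types for any of them. Of the 5 other tested CD300 genes, 3 were called higher in WT Treg by limma. They are Cd300c2 (log2 fold change 1.59, adjusted p = 0.0153), Cd300e (2.61, adjusted p = 0.000742) and Cd300ld3 (2.86, adjusted p = 0.00925). Cd300ld3 reached 10 only in Treg libraries, at 11.8 and 15.7 in WT, so its direction is a description. The part of myeloid cells in the CD300 values was not tested.

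**Figure D3:**
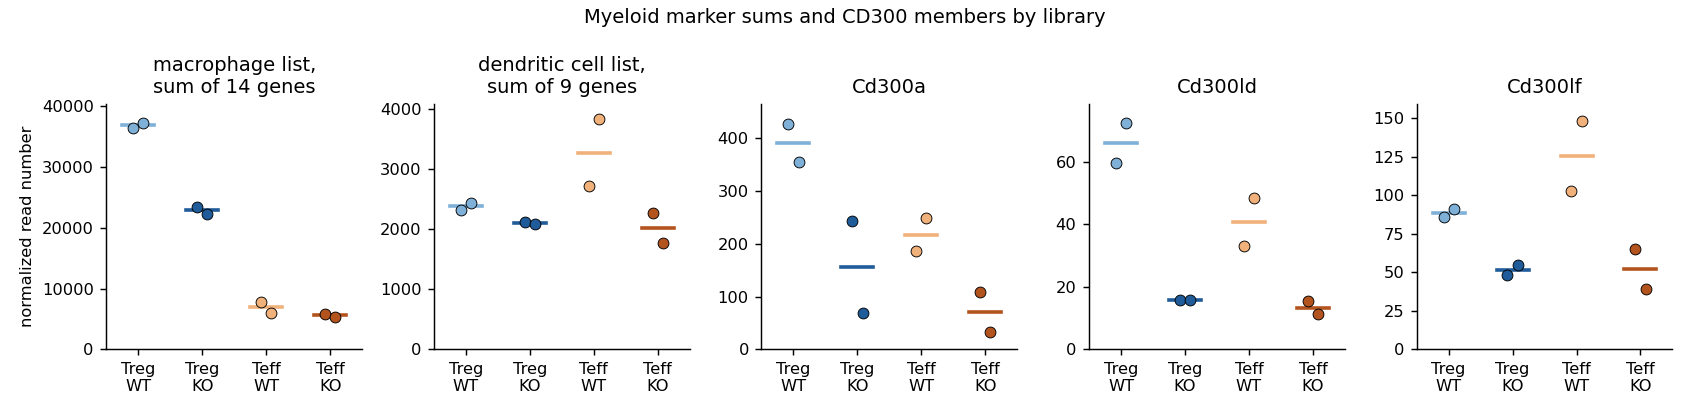
Normalized read number (vertical axes, from 0) by library for the summed macrophage markers (14 genes), the summed dendritic cell markers (9 genes) and the members Cd300a, Cd300ld and Cd300lf, with a line at the mean of 2 libraries. All 5 panels have lower KO than WT means in both cell types, and the macrophage sum of WT Treg, at 36425 and 37253, is above that of each other group.

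Icam2, a ligand of the integrin LFA-1, had 538 and 560 in WT Treg, 686 and 616 in KO Treg, 862 and 886 in WT Teff, and 1050 and 1121 in KO Teff. It was higher in KO in both cell types without overlap, below the threshold in each (log2 fold change 0.24, adjusted p = 0.265 in Treg and 0.31, adjusted p = 0.0882 in Teff). Pecam1 (CD31), an adhesion molecule of endothelium and of naive T cells, had differences of -0.02 and -0.04. Milr1, an inhibitory receptor of mast cells and other myeloid cells, had 0.15 in Treg and -0.50 in Teff (adjusted p = 0.789 and 0.196). Endothelial markers had sums of 53 to 130 over 8 genes, with 4 of them tested and none called in KO against WT by limma (1 at an unadjusted p under 0.05 in each cell type, and none called in the authors' deposited table). Cldn5 was at 1.00 or less in every library, while Eng had 17.3 to 43.3, Cdh5 8.84 to 50.2, and Esam 6.04 and 7.37 in WT Teff against 54.5 and 57.9 in KO Teff (adjusted p = 0.0949). The part of these cells in the values of Icam2 and Pecam1 was not tested.

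Among the 4 genes of chromatin and nuclear transport, Kpna2 and Dcaf7 were called lower in Teff and none was called in Treg by limma (2 at an unadjusted p under 0.05, and both called in the authors' deposited table). Kpna2 (106988629 to 106999541, minus strand) encodes an importin alpha, an adaptor that carries cargo with a nuclear localization signal to the import machinery. Its values were 329 and 274 in WT Treg, 104 and 58.1 in KO Treg, 277 and 255 in WT Teff, and 21.6 and 60.9 in KO Teff. Every KO library lay below every WT library, with KO means at 27% of WT in Treg and 15.5% in Teff. The log2 value fell by 2.84 in Teff (SE 0.47, adjusted p = 0.0166), and the difference in Treg was -1.93 (SE 0.47, adjusted p = 0.116). The Teff call was lost without either WT Teff library, with Teff libraries alone in the fit and without limma's trend and robust settings (adjusted p of 0.0514 to 0.079).

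Other importins moved less. Of 8 tested, none was called by limma in either cell type (0 and 1 at an unadjusted p under 0.05, and none in the authors' deposited table). Of these, 7 were below 0 in Treg and 6 in Teff, with a median log2 fold change of -0.06 in Treg and -0.10 in Teff. Proliferation genes were lower in KO: of 20 tested, all were below 0 in both cell types, with 2 called lower in Treg and 12 in Teff, and a median log2 fold change of -0.36 and -0.95. Their sums were 19272 and 19164 in WT Treg, 15075 and 15602 in KO Treg, 16074 and 16431 in WT Teff, and 11385 and 10736 in KO Teff. The part of proliferation in the Kpna2 values was not tested.

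Dcaf7 (106036872 to 106059324, plus strand) encodes a WD40 scaffold protein that binds DYRK kinases and serves CUL4 ubiquitin ligases. It had 3003 and 2913 in WT Treg, 2448 and 2489 in KO Treg, 3009 and 3071 in WT Teff, and 2329 and 2292 in KO Teff. All 4 KO libraries were lower than all 4 WT libraries, with means at 83.5% of WT in Treg and 76.0% in Teff. It fell by 0.40 on the log2 scale in Teff (SE 0.05, adjusted p = 0.00791) and was just short of a call in Treg (-0.26, SE 0.05, adjusted p = 0.0697). The Teff call was lost only with Teff libraries alone in the fit (adjusted p = 0.0652). Bptf, a subunit of the chromatin remodeller NURF, and Smarcd2, a subunit of SWI/SNF, had differences of -0.03 to 0.11, and none of 15 other tested subunits of these complexes was called by limma (1 in Treg and 2 in Teff at an unadjusted p under 0.05, and 0 and 1 called in the authors' deposited table).

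The promoters of 4 members called lower in KO, the pair that recurred and the pair nearest Ern1, are shown because the members were grouped by place and not by sequence. They are the 250 bases before the start in RefSeq (GRCm38.p6), written 5' to 3' on the gene's strand, at chr11:115297563-115297812 (minus strand), chr11:114989887-114990136 (minus), chr11:106999526-106999775 (minus) and chr11:106036622-106036871 (plus), and capitals mark the letters CCAAT or their complement ATTGG.
Fads6: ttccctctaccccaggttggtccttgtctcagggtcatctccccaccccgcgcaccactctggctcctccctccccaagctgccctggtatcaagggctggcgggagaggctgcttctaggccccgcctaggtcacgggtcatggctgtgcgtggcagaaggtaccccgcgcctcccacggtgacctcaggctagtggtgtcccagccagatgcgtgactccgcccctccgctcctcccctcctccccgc
Cd300ld: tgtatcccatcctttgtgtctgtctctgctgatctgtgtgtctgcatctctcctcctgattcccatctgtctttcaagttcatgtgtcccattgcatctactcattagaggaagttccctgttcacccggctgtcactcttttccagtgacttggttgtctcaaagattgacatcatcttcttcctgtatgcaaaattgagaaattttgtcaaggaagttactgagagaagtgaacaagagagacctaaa
Kpna2: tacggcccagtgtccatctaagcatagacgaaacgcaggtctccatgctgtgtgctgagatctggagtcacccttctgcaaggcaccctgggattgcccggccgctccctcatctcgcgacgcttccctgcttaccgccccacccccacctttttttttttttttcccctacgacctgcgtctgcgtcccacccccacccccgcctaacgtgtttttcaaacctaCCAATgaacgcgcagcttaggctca
Dcaf7: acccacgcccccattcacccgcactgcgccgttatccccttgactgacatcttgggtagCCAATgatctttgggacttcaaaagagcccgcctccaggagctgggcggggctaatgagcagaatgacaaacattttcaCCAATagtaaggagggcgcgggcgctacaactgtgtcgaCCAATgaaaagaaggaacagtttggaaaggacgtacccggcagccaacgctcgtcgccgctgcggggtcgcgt
The Cd300ld stretch holds 1 CG pair at 42.8% G and C, and those of Fads6, Kpna2 and Dcaf7 hold 13, 16 and 19 CG pairs at 67.6%, 57.6% and 57.2%. Promoters were found for 38 of the 44 members, 57 in all. TGACGTG, the core of a motif bound by XBP1 and ATF6, occurred on either strand in 0 of these 57 and in 1.65% of 32851 mouse promoters of the same length. CCAAT, a motif searched after the data were seen, occurred on either strand in 14 of the 57 (12 members, with 3 matches in Dcaf7 and 1 in Kpna2) and in 33.8% of all. With no match of the first motif, none overlapped the second, and a match of letters is no binding site.

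Of the 10 signalling proteins, Prkca and Rab37 were called lower in Teff and none was called in Treg by limma, where 4 had an unadjusted p under 0.05 and none was called in the authors' deposited table. Prkca (107933387 to 108343928, minus strand) encodes protein kinase C alpha, which acts downstream of diacylglycerol and calcium. Its values were 5499 and 5637 in WT Treg, 5529 and 5138 in KO Treg, 2948 and 3127 in WT Teff, and 2183 and 2074 in KO Teff. The groups overlapped in Treg and stood apart in Teff. The log2 value fell by 0.51 in Teff (SE 0.06, adjusted p = 0.00589), the difference in Treg was -0.06 (SE 0.06, adjusted p = 0.71), and the difference between the effects, 0.45, was not called (adjusted p = 0.153). The Teff call was lost with Teff libraries alone in the fit (adjusted p = 0.0519). None of 12 other tested genes of protein kinases C and A was called by limma in either cell type (4 in Treg and 2 in Teff at an unadjusted p under 0.05, and 1 and 0 called in the authors' deposited table).

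Rab37 (115091431 to 115162236, plus strand) encodes a small GTPase of secretory granules. It had 2391 and 2311 in WT Treg, 1971 and 2003 in KO Treg, 1916 and 1828 in WT Teff, and 1354 and 1566 in KO Teff. KO libraries were below WT libraries in both cell types, with a call in Teff (-0.36, SE 0.08, adjusted p = 0.0424) and none in Treg (-0.24, SE 0.08, adjusted p = 0.227). This call held in 2 of 16 alternative analyses and reached an adjusted p of 0.15, fewer than any other call of a member in these 2 comparisons.

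The other 8 signalling proteins were not called. Gna13 encodes the alpha subunit of G13, which drives RhoA through its exchange factors. It had 5124 and 5081 in WT Treg, 4903 and 4434 in KO Treg, 4967 and 5180 in WT Teff, and 4495 and 4072 in KO Teff, lower in KO without overlap in both (log2 fold change -0.13, adjusted p = 0.472 in Treg and -0.25, adjusted p = 0.0954 in Teff). Of 8 other tested genes of this pathway, Arhgef1, a RhoA exchange factor, was called higher in Teff (0.25, adjusted p = 0.0113) and none was called in Treg (1 at an unadjusted p under 0.05, and 1 in the authors' deposited table). Map3k3, a MAP kinase kinase kinase, had 2217 and 2183 in WT Treg and 2567 and 2542 in KO Treg, and Map2k6, an activator of p38, had differences of -0.17 and -0.21. None of 8 other tested genes of the p38 cascade was called by limma (1 in Treg and 2 in Teff at an unadjusted p under 0.05, and 0 and 2 in the authors' deposited table). Grb2, the adaptor that links receptors to Ras, Prkar1a, a regulatory subunit of protein kinase A, Strada, a partner of the kinase LKB1, and Smurf2, a ubiquitin ligase of TGF-beta signalling, had differences of -0.18 to 0.23.

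Axin2, a feedback inhibitor of Wnt signalling, had 1264 and 1174 in WT Treg, 1342 and 1385 in KO Treg, 2493 and 2465 in WT Teff, and 2270 and 2173 in KO Teff. The KO libraries were thus higher in Treg and lower in Teff, each without overlap, and the difference between the effects was 0.32 (SE 0.09, adjusted p = 0.308). Ddx42, an RNA helicase, was placed the other way round, with 2152 and 2150 in WT Treg, 1914 and 2037 in KO Treg, 2368 and 2313 in WT Teff, and 2517 and 2407 in KO Teff (difference between the effects -0.20, adjusted p = 0.498). No member had a difference between the effects that passed limma's test, against 0.0225% of all genes, and 4 members (Prkca, Axin2, Cep112 and Milr1) had an unadjusted p under 0.05 for it. Of 12 other tested genes of Wnt and TGF-beta feedback, Znrf3 was called higher in Treg and in Teff (adjusted p = 0.0464 and 0.00279) and Rnf43 lower in Teff (adjusted p = 0.0424), both ubiquitin ligases that remove Wnt receptors.

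None of the 6 genes of RNA handling and ribosome biogenesis was called by limma (1 in each cell type at an unadjusted p under 0.05, and none in the authors' deposited table). Ddx5, an RNA helicase, had 55826 and 54569 in WT Treg, 56337 and 56545 in KO Treg, 57901 and 55151 in WT Teff, and 60053 and 58774 in KO Teff. Its KO libraries were above its WT libraries in both cell types, with log2 fold changes of 0.03 and 0.07 (adjusted p = 0.77 and 0.337). Mif4gd, which acts in the translation of histone mRNA, had 2249 and 2312 in WT Treg, 1888 and 1834 in KO Treg, 1515 and 1637 in WT Teff, and 1291 and 1362 in KO Teff. It was lower in KO in both without overlap, and its differences of -0.29 and -0.25 missed the threshold in each cell type (adjusted p = 0.102 and 0.0824). Ftsj3 and Nol11, both of ribosome biogenesis, and the helicase Helz had differences of -0.12 to 0.24.

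Cep112, a centrosome protein, had 95.9 and 72.9 in WT Treg, 7.73 and 1.42 in KO Treg, 7.90 and 1.35 in WT Teff, and 2.03 and 0.954 in KO Teff. It stood above 10 in WT Treg alone, and the difference in Treg was -4.20 (SE 0.85, adjusted p = 0.069) and was called with a pseudocount of 10 and with a replicate block. Cep95, the other centrosome gene, had -0.03 and 0.22. Wipi1, an autophagy protein, missed the floor and was not tested: its values were 6.37 and 9.14 in WT Treg, 86.3 and 3.42 in KO Treg, 7.32 and 8.05 in WT Teff, and 3.66 and 1.94 in KO Teff, so that a single KO Treg library reached 10. Tanc2, a synaptic scaffold, had 232 and 171 in WT Treg, 158 and 124 in KO Treg, 47.9 and 144 in WT Teff, and 82.0 and 105 in KO Teff, with WT Teff libraries further from each other than from KO.

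The remaining members showed no call in either cell type. They are Limd2, a LIM domain protein, Polg2 and Taco1 of mitochondrial gene expression, and Tex2, Ccdc47, Pitpnc1 and Cog1 of membrane traffic, lipid transfer and the ER, with differences of -0.35 to 0.21. By limma neither the mitochondrial nor the membrane group had an unadjusted p under 0.05 in either cell type. None of 11 other tested genes of the COG complex and the ER translocon was called (0 in Treg and 2 in Teff at an unadjusted p under 0.05, and none in the authors' deposited table). Ccdc47 shares 4761 bases with Strada on the same strand, so their values are uncertain where reads could fall to both. In all, 14 of 44 members overlap another gene of the table.

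Averaged over both cell types, KO against WT was called for 12 of 43 members, against 9.25% of all genes. They are the 8 called in either cell type and Cd300lf, Cep112, Icam2 and Mif4gd. Icam2 was higher in KO by 0.28 (adjusted p = 0.0368), and Cd300lf (-1.02, adjusted p = 0.0293), Cep112 (-2.56, adjusted p = 0.0429) and Mif4gd (-0.27, adjusted p = 0.0169) were lower. The average of Cep112 rests on Treg, since its Teff libraries were all under 10. It was tested only through its WT Treg libraries and so had to be lower in KO Treg, which makes this call a description. Cygb, also among the 12, was tested only through its KO libraries.

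Position along the chromosome was then set against these differences. Within 5 Mb of the Ern1 start 33 members were tested: none was called in Treg by limma (9 at an unadjusted p under 0.05, and 3 called in the authors' deposited table), 3 were called in Teff (Dcaf7, Kpna2 and Prkca) and none in both. The median absolute log2 fold change of these 33 was 0.149 in Treg and 0.153 in Teff. The other 10 members start over 7 Mb after Ern1, and 3 were called in Treg, 5 in Teff and 3 in both, with medians of 0.708 and 1.18. Of all tested genes 1.45% were called in Treg, 6.92% in Teff and 0.958% in both. All 69 tested genes at 5 to 10 Mb after Ern1, members included, had medians of 0.243 in Treg and 0.2 in Teff. The 98 beyond had 0.161 and 0.21. Of the members called in both by limma, Cd300ld starts 8.50 Mb, Fads6 8.81 Mb and Cygb 10.17 Mb after Ern1. This order rests on the threshold: Dcaf7 (0.45 Mb before Ern1) and Kpna2 (0.51 Mb after it) had all KO libraries below all WT libraries in both cell types and are called in both in the authors' deposited table. Kpna2 was also called in both by limma without either KO Teff library, where Cd300ld was not. No test was made of this split, since the list was picked by name.

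All tested genes of the region, listed or not, were counted in the same way. Within 1 Mb 27 genes were tested, 2 were called in either cell type and none in both by limma (4 at an unadjusted p under 0.05 in both with the same sign, and 2, Kpna2 and Dcaf7, called in both in the authors' deposited table). Within 5 Mb 8 of 93 (8.60%) were called in either cell type and none in both. The share was 14.5% of 69 genes at 5 to 10 Mb after Ern1, where Cd300ld and Fads6 were the 2 called in both, and 16.3% of 98 genes beyond, where 4 were called in both. Before Ern1 the share was 9.26% of 108 genes at 5 to 10 Mb and 5.69% of 738 genes beyond. Over all tested genes it was 7.4%. Of 73 other tested genes between the first and the last member, apart from Ern1, none was called in Treg (8 at an unadjusted p under 0.05) and 7 in Teff (Rgs9, Fdxr, Caskin2, Trim47, Mrpl38, Foxj1 and Rnf157, named after their values were seen). On the whole of chromosome 11, 8 of 1107 tested genes (0.723%) were called in both cell types, against 0.958% of all tested genes. Chromosomes 17 (3.98%), 12 (3.78%) and 14 (3.14%) were among those with a higher share.

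Cygb has strongly changed neighbours past the end of the list. St6galnac2 and St6galnac1, sialyltransferases whose starts lie 10.21 and 10.29 Mb after that of Ern1, were named after their values were seen. St6galnac2 had 92.7 and 110 in WT Treg, 1649 and 1614 in KO Treg, 129 and 105 in WT Teff, and 5437 and 5333 in KO Teff. St6galnac1 had 7.84 and 10.8 in WT Treg, 396 and 402 in KO Treg, 216 and 246 in WT Teff, and 1785 and 1747 in KO Teff. Both were far higher in every KO library. The log2 fold changes were 4.00 and 5.29 in Treg (adjusted p = 2.45e-05 for each) and 5.52 and 2.93 in Teff (adjusted p = 7.01e-06 and 0.000421).

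**Figure D4:**
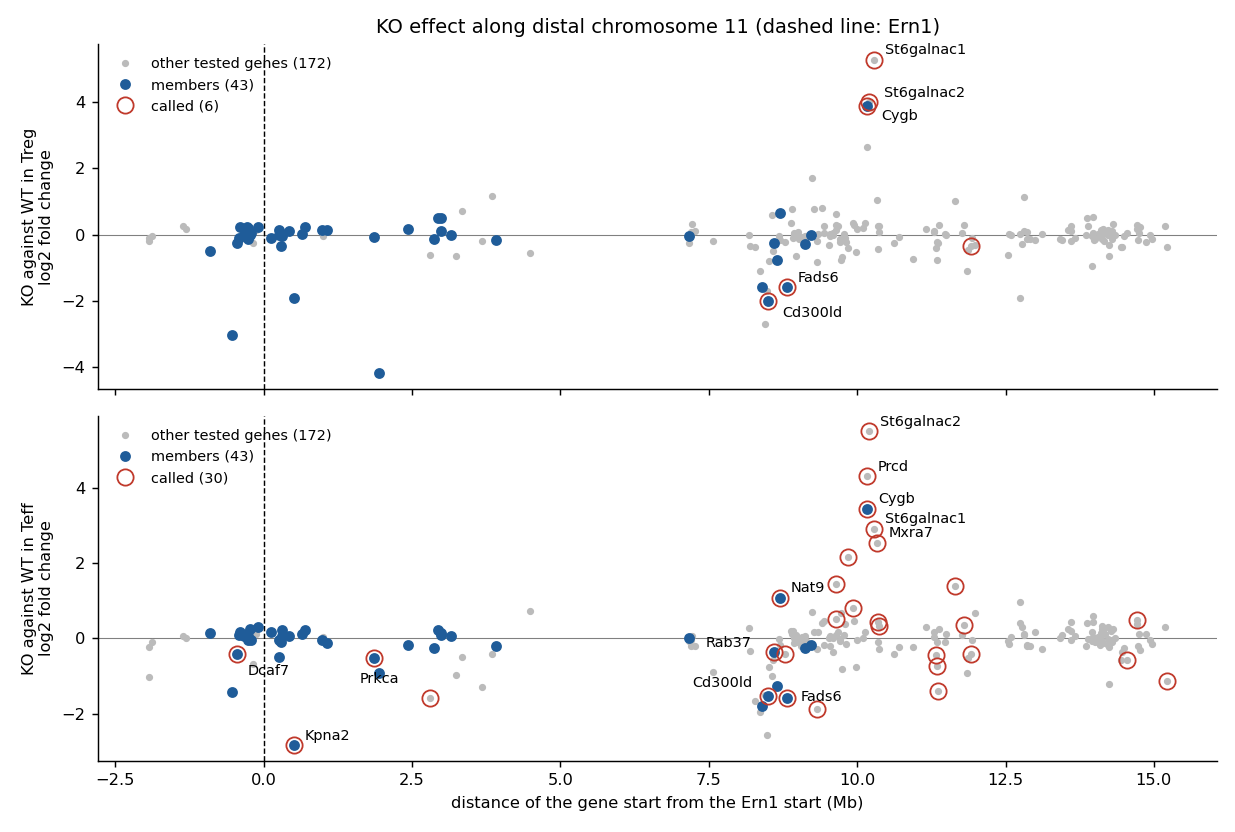
Log2 fold change of (value + 1) in KO against WT in Treg (upper panel) and Teff (lower panel) against the distance of a gene's start from that of Ern1 in Mb, for 43 members (blue) and 172 other tested genes from 2 Mb before Ern1 to the end of the chromosome (grey), with called genes ringed. Near the dashed line at Ern1 no gene is ringed in Treg, and Cd300ld, Fads6 and Cygb are ringed in both panels at 8.50 to 10.17 Mb.

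The members were also compared between the cell types. In WT 12 of 43 were called between Treg and Teff, against 25.1% of all genes, 6 higher in Treg against 13.5% and 6 lower against 11.6%. In KO 10 were called against 26.9%, 5 higher against 15.7% and 5 lower against 11.2%. These shares, 27.9% and 23.3% of the members, are near those of all genes. Prkca was higher in Treg by 0.87 in WT (SE 0.06, adjusted p = 0.000109) and by 1.32 in KO (SE 0.06, adjusted p = 1.59e-05). Also higher in Treg in both genotypes were Rab37, Mif4gd, Slc16a6 and Arsg, by 0.33 to 1.55. Axin2 was lower in Treg (-1.02 in WT, adjusted p = 7.17e-05, and -0.70 in KO, adjusted p = 0.000264), and Icam2, Pecam1 and Limd2 were lower in both genotypes, with differences of -0.74 to -0.28. Cygb (-1.55, adjusted p = 0.0162, called in 12 of 16 alternatives) and Smurf2 (-0.37, adjusted p = 0.0431) were called between the cell types in WT alone and Ddx42 (-0.32, adjusted p = 0.00772) in KO alone, and for none of these 3 did the KO effect differ between the cell types by the test of that difference. The remaining call in WT, Cep112 (4.21, adjusted p = 0.0103), is a description, since it was tested only through its WT Treg libraries and so had to be higher there. Cygb was tested only through its KO libraries, and its WT values were near or under 10 (2.94 and 1.96 in Treg, 8.04 and 10.1 in Teff). Its call in WT was lost with a pseudocount of 10.

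**Figure D5:**
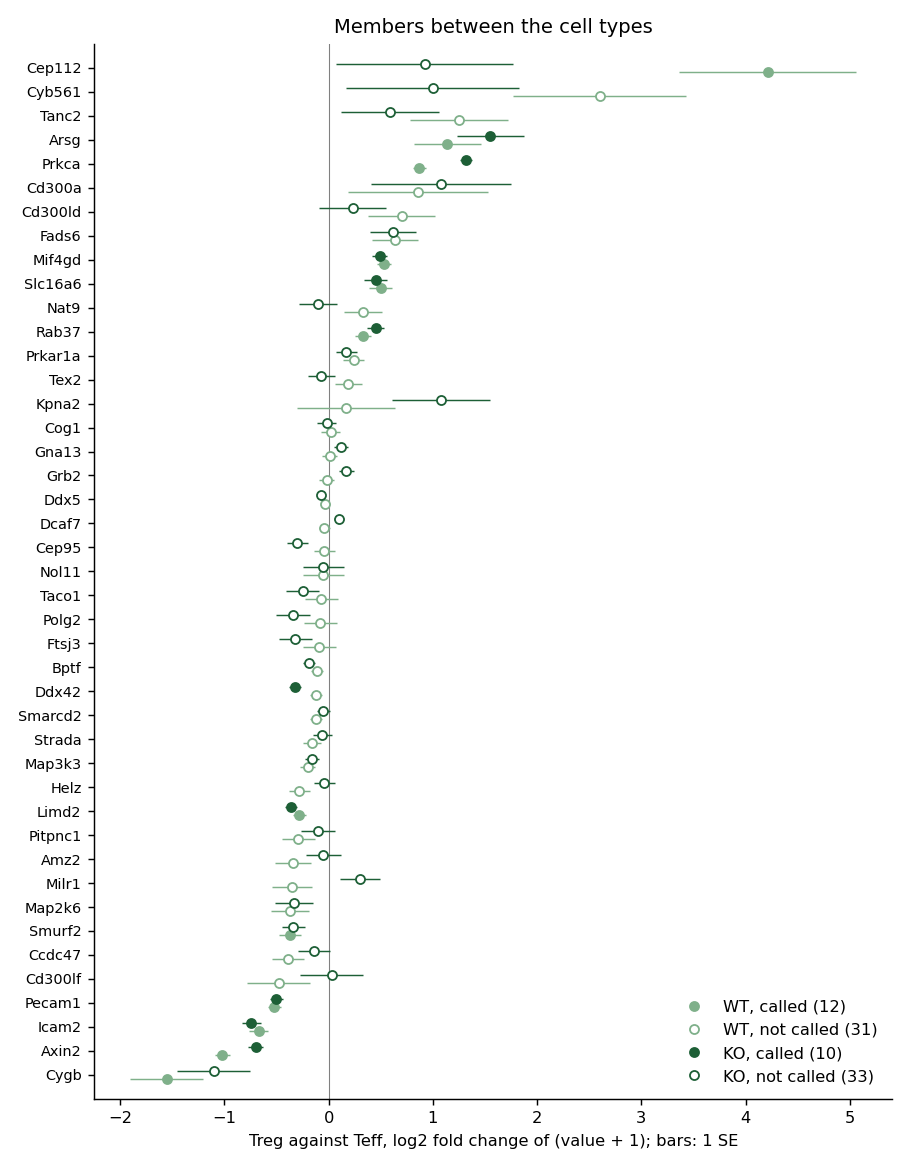
Log2 fold change of (value + 1) in Treg against Teff (horizontal axis, bars of 1 SE) for 43 members in WT (light) and in KO (dark), with filled points where the difference was called. Of the members 12 are filled in WT and 10 in KO, with Prkca and Arsg to the right and Icam2, Pecam1 and Axin2 to the left in both genotypes.

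In the authors' deposited table, which covers all 44 members, 6 had an adjusted p below 0.05 in Treg (Dcaf7, Kpna2, Cep112, Cd300ld, Fads6 and Cygb), where 3.28% of all genes did. In Teff the authors' deposited table gives 9 such members (Dcaf7, Kpna2, Prkca, Gna13, Rab37, Cd300lf, Nat9, Fads6 and Cygb), against 8.82%. The authors' deposited table holds 4 members, Dcaf7, Kpna2, Fads6 and Cygb, that were called in the same direction in both cell types, against 1.93% of genes with both p-values. Fads6 and Cygb are thus called in both cell types by either source, Cd300ld in both by limma alone (adjusted p = 0.0893 in Teff in the authors' deposited table), and Dcaf7 and Kpna2 in both in the authors' deposited table alone.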

How the data were processed

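The 8 libraries were 2 each of WT and KO Treg and Teff. Per the labels' protocols, RNA isolated with TRIzol was enriched on oligo(dT) beads and sequenced as single ends of 50 bases on a DNBSEQ instrument; neither a strand mark nor molecular identifiers are named. The tools of the authors, per the submitters' processing notes, were Trim Galore 0.4.4 and Salmon 0.14.1, then DESeq2 1.28.1 under R 4.0.3, on build mm10. The authors deposited 1 table of 18438 genes whose signal columns, 1 per library, hold normalized read numbers that need not be whole. How these were scaled is not stated by the labels. The table also holds the authors' deposited log2 fold changes and adjusted p-values, used only where named. No column of per-sample values was left unmapped.

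With a pseudocount of 1, log2 values of all 8 libraries were fitted by limma 3.58.1 in R 4.3.3, using its trend and robust settings, 1 mean per group and 4 residual degrees of freedom. The fit covered 13358 genes at 10 or more in 2 libraries. P-values, two-sided, were adjusted by Benjamini-Hochberg over these genes in each contrast and called at 0.05. Fold changes on this scale understate the change of weak genes. The fit was tested on simulated data. Members, gene lists and tests were chosen with earlier results of these data known. Each member called in KO against WT is given with all libraries, as are the uncalled ones that changed over 2-fold. Members called only between the cell types are not all given in this way. Genes outside the list are mostly named by the smallest p-values of their list or, where said, after their values were seen. Cd4, Il2ra, Foxp3, Fcgr1, Cldn5, Eng and Cdh5 are markers given for their levels. Coordinates are of whole genes in GENCODE M21 (GRCm38), where all gene identifiers were found, 97.2% in the same version. Python 3.11.15, pandas 2.3.3, numpy 2.4.6 and matplotlib 3.10.9 made the tables and figures. The 16 alternatives changed the pseudocount, filter, scaling, shrinkage, libraries in the fit and block, or left out 1 library; the authors' deposited table was added after seeing the data.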

Additional observations from a re-analysis of the deposited data

How the results depend on the processing

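Precision rests on 2 libraries per group, and where 1 was left out the lone library was assumed to vary like the other groups. No call of a member changed sign in any of the 16 alternatives. The calls of Cygb in KO against WT held in all of them, and its call between the cell types in WT held in 12. Cygb was tested only through its KO libraries, so the persistence of its calls is a description and no support for them. Members called in Treg numbered 3, 5 with a pseudocount of 10 (Cep112 and Cyb561 were added) and 1 to 4 with 1 library left out; 1, Cygb, was left without any single Treg library. In Teff 8 were called, 1 with Teff libraries alone in the fit and 4 to 7 with 1 library left out (4 without either WT library: Cygb, Dcaf7, Fads6 and Prkca). Called in both were 3, 1 when each comparison was fitted on its own groups, and 1 to 3 with 1 library left out. Averaged over the cell types 12 were called, 6 without limma's trend and robust settings, and 6 to 12 with 1 library left out. Between Treg and Teff the count was 12 in WT (6 to 13 with 1 library left out, with 6 without either WT Treg library and 7 without the second WT Teff library) and 10 in KO (7 to 11). For the difference of the KO effects it was 0 throughout. Over all genes, calls in Teff fell from 924 to 177 with Teff libraries alone in the fit; the cause was not tested. For the average and the difference of the effects, a fit on the groups compared is the same fit.

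With a replicate block 3 members were called in Treg (Cep112, Cygb and Fads6), 6 in Teff, 2 in both (Cygb and Fads6), 10 on average, 12 between the cell types in WT and 11 in KO. Over all genes the replicate block left 114 calls in Treg and 688 in Teff. Deviations of same-numbered libraries correlated at -0.0384 to 0.059 over all tested genes and at -0.123 to 0.00985 over genes with a mean above 100 (-0.123 between WT and KO Treg). Neither the labels nor these values tie same-numbered libraries to each other. The authors' deposited table, added after seeing the data, calls 11 members in either cell type, 8 of them shared with the 8 called by limma.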
